A study of Canis lupus familiaris with 12 samples.

Results

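The 327 repeat rows with the most reads in luciferase control myoblasts were followed across human DUX4, canine DUXC and the isoform DUXC-ALT. Each row of the repeat tables counts reads over 1 group of annotated genomic repeats. The rows were chosen by joining the 3 raw repeat tables over rows with at least 7 luciferase reads, which gave 654 rows, and by ranking these on their summed luciferase counts. The members are the rows ranked 1 to 327. Luciferase counts alone set the ranking, so luciferase levels are given here as a description. The tables as used here give rows no family name, class, genome position or length. Rows are therefore cited by their number in the DUX4 repeat table, no sequence can be attached to them, and levels of different rows are not compared per length.

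Polyadenylated RNA came from 12 libraries of immortalized canine myoblasts, which are precursor cells of skeletal muscle, with 3 libraries in each of 4 groups. All cells carried the lentiviral vector pCW57.1, in which doxycycline switches on the insert, and the inserts were human DUX4, canine DUXC, canine DUXC-ALT and, as the negative control, luciferase. The treatment protocol states doxycycline at 1 ug/ml over 24 h for all samples, but the treatment tag of the luciferase samples states that none was given, so insert and doxycycline cannot be told apart in comparisons with luciferase. Comparisons among DUX4, DUXC and DUXC-ALT are free of this difference. The labels do not state that replicates were separate cultures, so a p-value covers only how far these samples vary, part of which may be technical. Myoblast identity was not checked against markers, because gene rows have no names either. The factors were forced from a vector in stable lines of 1 immortalized cell type, and how much of each factor the cells made was not measured here. Gene counts per library ran from 15556477 to 20591033, and counts over the member rows ran from 517174 to 1197218.

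Interspersed repeats are copies of transposable elements, and they make up a large part of mammalian genomes. They include long and short interspersed elements, DNA transposons and the long terminal repeats of endogenous retroviruses. Repeat annotations also list simple repeats and copies of small structural RNAs. Repeat reads in polyadenylated RNA can come from elements with their own promoter or from elements inside the introns and untranslated ends of genes, and counts per family do not separate these sources. DUX4 is a double homeobox transcription factor of the early embryo that is known, in human muscle cells, to bind and activate long terminal repeats, and its misexpression in muscle underlies facioscapulohumeral dystrophy. DUXC is its canine relative, and the series title concerns how similar its isoforms are to human DUX4 in function.

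The ranking was dominated by row 335. This row held 879700 of the summed luciferase reads, 15.3 times as many as row 660 at rank 2 with 57611, and 45.1% of all luciferase reads over the members. Without row 335, the next 9 rows held 31.2% of the remaining reads, 21 rows were needed to reach 50% and 129 to reach 90%. The median member had 829 luciferase reads. The members held 98.8% of the luciferase reads over all joined rows. At the rank limit, rows 593 and 503 were the last inside with 231 and 229 luciferase reads, and rows 522 and 25 were the first outside with 229 and 228. Rows 503 and 522 were tied, and the order in the table decided between them.

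Summed over all members, repeat reads were most frequent with DUX4, next with DUXC, and about as frequent with DUXC-ALT as with luciferase. Per 100 gene counts, the luciferase libraries gave 3.42, 3.43 and 3.50 member reads, and the DUX4 libraries gave 6.65, 6.53 and 7.17. The DUXC libraries gave 5.52, 5.69 and 4.81, and the DUXC-ALT libraries gave 3.19, 3.48 and 2.77. The 3 ranges of DUX4, DUXC and DUXC-ALT did not overlap, whereas 1 DUXC-ALT library lay within the luciferase range and the others below it. Without row 335, the means were 1.89 ± 0.0136 under luciferase, 4.53 ± 0.109 under DUX4, 3.53 ± 0.104 under DUXC and 1.92 ± 0.0742 under DUXC-ALT (SD, n = 3). The ratio of DUX4 to DUXC-ALT was 2.16 with row 335 and 2.36 without it. That of DUXC to DUXC-ALT was 1.698 and 1.83, and that of DUX4 to DUXC was 1.27 and 1.28. Against luciferase, DUX4 stood at 1.97 with row 335 and 2.39 without it, DUXC at 1.55 and 1.86, and DUXC-ALT at 0.912 and 1.02. These sums over chosen rows were given no p-value. In bulk libraries, fewer cells of a kind and less RNA per cell cannot be told apart, and neither can more repeat reads and fewer gene reads.

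**Figure D1:**
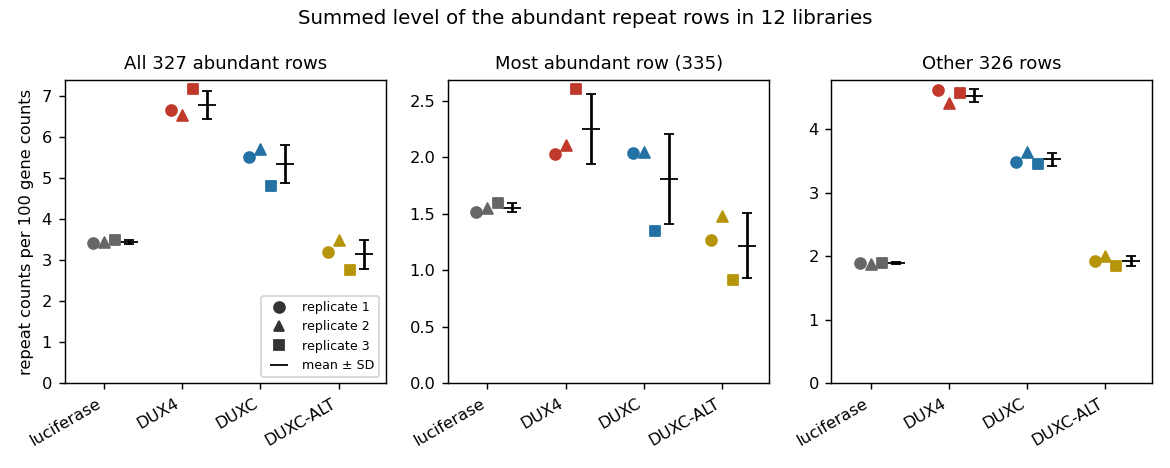
Member reads per 100 gene counts (vertical axis) in each of the 12 libraries, for all 327 rows, for row 335 alone and for the other 326 rows. Each point is a library with its replicate number as the symbol, and bars give mean ± SD over 3 libraries. The spread within the DUX4, DUXC and DUXC-ALT groups lay mostly in row 335, and the other 326 rows fell close together at 4.53 under DUX4, 3.53 under DUXC and 1.92 under DUXC-ALT.

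Compared with DUXC-ALT, most member rows were higher with DUX4. All 327 members passed the filter on low counts in each of the 6 comparisons. DUX4 exceeded DUXC-ALT in 305 members and lay below it in 4, and 189 of the higher rows and 0 of the lower rows differed by more than 2-fold (edgeR quasi-likelihood test, Benjamini-Hochberg adjusted p under 0.05 over all repeat rows tested). Of all 608 repeat rows tested, 91.6% were higher and 0.658% lower, 66.3% and 0.0% by more than 2-fold. The members' higher share of 93.3% was therefore near that of all rows. Their median log2 difference was 1.13, against 1.298 over all rows tested. The count of lower members was 7 without DUXC-ALT replicate 3. Scaled on repeat counts in place of gene counts, 101 members were higher and 170 lower with DUX4, beside 35.3% and 37.3% of all rows. That scaling moved each log2 difference by -1.29, so the directions given are relative to gene counts.

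DUXC also exceeded DUXC-ALT in most members. It was higher in 288 members and lower in 11, and 101 of the higher rows but 0 of the lower rows passed 2-fold (edgeR). Over all 598 rows tested, 85.1% were higher and 2.17% lower, 42.8% and 0.167% by more than 2-fold. The median log2 difference was 0.74 among the members and 0.901 among all rows. Among the members, the middle 50% of differences ran from 0.46 to 1.14. Scaled on repeat counts, 92 members were higher and 154 lower, beside 32.8% and 32.1% of all rows, with each difference moved by -0.87.

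DUX4 and DUXC differed less from each other. DUX4 was higher in 220 members and lower in 18, and 13 were higher and 0 lower by more than 2-fold (edgeR; DESeq2 called 206 of the 220 and 16 of the 18). Over all 619 rows tested, 54.3% were higher and 7.43% lower, 7.75% and 1.94% by more than 2-fold, whereas 67.3% of the members were higher. The median log2 difference was nearly the same, at 0.305 among the members and 0.303 among all rows. The members have more reads per row than the rest, and the part of that in the larger share was not tested. Scaled on repeat counts, 81 members were higher and 98 lower, beside 23.4% and 26.3% of all rows, with each difference moved by -0.32.

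**Figure D2:**
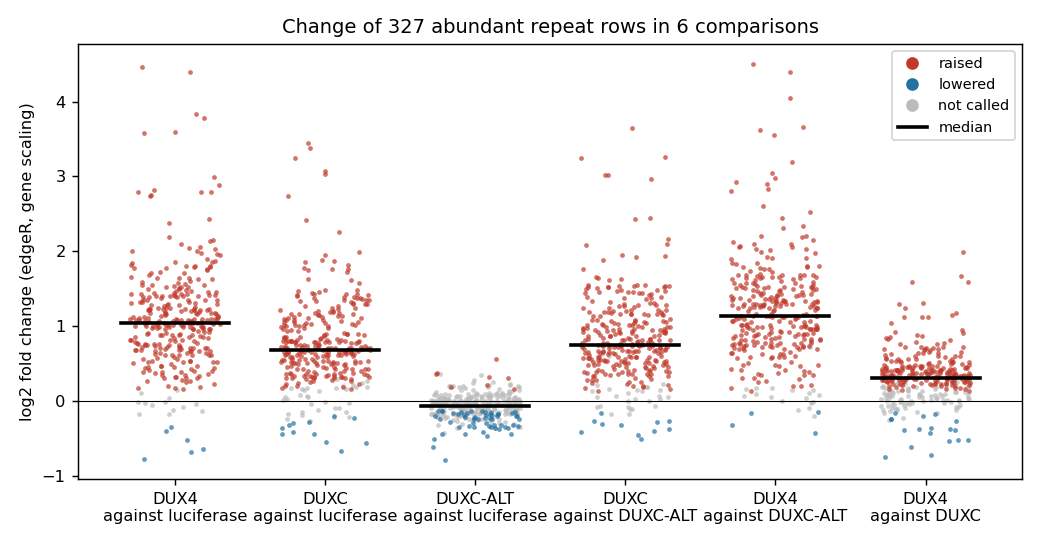
Log2 fold changes (vertical axis, edgeR with gene scaling) of the 327 members in the 6 comparisons. Each point is a row, red where raised, blue where lowered and grey where not called, and black lines are medians. Medians lay at 1.05, 0.68 and -0.07 for DUX4, DUXC and DUXC-ALT against luciferase, at 0.74 and 1.13 for DUXC and DUX4 against DUXC-ALT, and at 0.305 for DUX4 against DUXC.

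On gene scaling, the commonest order was DUX4 above DUXC above DUXC-ALT. Orders on repeat scaling, where more members were lower than higher in each of these comparisons, were not taken. All 3 of these differences were called in 200 members, or 61.2%, beside 48.7% of the 593 joined rows tested in all 3 comparisons. In 70 further members both DUX4 and DUXC exceeded DUXC-ALT with no call between them, or 21.4% beside 28.8%. DUXC stood above DUX4 and DUX4 above DUXC-ALT in 14 members, or 4.28% beside 6.07%. The same order was thus the commonest among all rows, and the difference in its share was not tested. In 3 members, rows 191, 210 and 526, DUX4 stood above DUXC-ALT and DUXC below it, or 0.917% beside 0.506%. No difference between the factors was called in 9 members, which included row 660 at rank 2 and row 67, or 2.75% beside 4.89%.

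Against luciferase the same counts are a description, since luciferase reads chose the rows. DUX4 had 308 members raised and 6 lowered, with 91.4% and 1.13% of all 617 tested rows called. By more than 2-fold, 178 members were raised and 0 lowered, beside 63.5% and 0.162%. DUXC had 281 raised and 12 lowered, with 82.6% and 2.81% of all 605. By more than 2-fold, 91 were raised and 0 lowered, beside 39.8% and 0.165%. DUXC-ALT had 8 raised and 57 lowered, with 1.81% and 12.6% of all 554. By more than 2-fold 0 were raised and 0 lowered, beside 0.0% and 1.44%. The median log2 fold changes of the members were 1.05, 0.68 and -0.07, against 1.21, 0.801 and -0.07 over all rows tested. For DUXC-ALT, the TMM factors of the gene scaling moved each value by -0.0739 from that on gene column totals. On those totals, 16 members were raised and 21 lowered with DUXC-ALT. Its mean CPM, also taken on those totals, lay above luciferase in 168 members and below it in 159. On repeat scaling, DUX4 had 97 members raised and 162 lowered, beside 35.2% and 34.0% of all rows. DUXC had 91 and 143, beside 32.9% and 29.5%, and DUXC-ALT had 17 and 21, beside 3.45% and 4.91%. That scaling moved each log2 fold change by -1.18 under DUX4, by -0.8 under DUXC and by 0.0747 under DUXC-ALT.

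The ranking was also made on luciferase replicate 1 alone, and the factors were set against replicates 2 and 3. The joined rows had still passed the read limit on the sum over all 3 luciferase libraries. Of the 327 rows chosen in that way, 321 were members, so the counts that follow are a description and not an independent check. DUX4 raised 305 of them and lowered 6, with 90.1% and 1.12% called among all 625 rows tested (edgeR). DUXC raised 273 and lowered 9, with 78.5% and 2.08% of 624. DUXC-ALT raised 5 and lowered 42, with 0.891% and 8.2% of 561. The medians of these rows were 1.03, 0.67 and -0.07 on the log2 scale.

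Row 335, the most abundant, varied widely between libraries of 1 factor. It stood at 1.52, 1.55 and 1.598 reads per 100 gene counts in the luciferase libraries and at 2.03, 2.11 and 2.60 in the DUX4 libraries. It stood at 2.04, 2.05 and 1.35 in the DUXC libraries and at 1.27, 1.48 and 0.916 in the DUXC-ALT libraries. DUX4 lay above luciferase and DUXC-ALT in every library, but DUXC replicate 3 lay below all luciferase libraries while the other two DUXC libraries lay above them. The coefficient of variation of the row was 2.64% over the luciferase libraries and 13.8%, 22.1% and 23.3% over those of DUX4, DUXC and DUXC-ALT, where the median member had 6.21%, 4.16%, 6.38% and 5.19%. Between factors, DUX4 exceeded DUXC-ALT by 0.96 ± 0.23 log2 units (SE, edgeR, adjusted p = 0.0159). This call was lost without DUX4 replicate 3 (adjusted p = 0.0505) or DUXC-ALT replicate 1 (adjusted p = 0.0527). DUXC over DUXC-ALT, at 0.59 ± 0.27 (SE, edgeR, adjusted p = 0.0995), and DUX4 over DUXC, at 0.31 ± 0.21 (SE, edgeR, adjusted p = 0.282), were not called.

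Row 660, the second most abundant, varied between libraries in the same order as row 335 within each of the 3 factors. Row 660 stood at 1119, 974.5 and 967.6 CPM, which here scales a row's reads on the library's total gene counts, in the luciferase libraries. It stood at 1649, 1804 and 1836 CPM under DUX4, at 1706, 1932 and 1534 CPM under DUXC and at 994, 1644 and 760.5 CPM under DUXC-ALT. DUXC-ALT replicate 2 was highest and replicate 3 lowest in both rows, DUXC replicate 2 was highest and replicate 3 lowest, and DUX4 replicate 3 was highest and replicate 1 lowest. In luciferase the order of the 2 rows was opposite. With DUXC-ALT its coefficient of variation of 40.4% was the highest of all members. None of its differences between factors was called, with log2 differences of 0.63 ± 0.33 for DUXC over DUXC-ALT, 0.72 ± 0.33 for DUX4 over DUXC-ALT and 0.03 ± 0.08 for DUX4 over DUXC (SE, edgeR, adjusted p = 0.14, 0.104 and 0.786). The members without both rows, summed per 100 gene counts, stood at 3.310, 3.456 and 3.307 under DUXC and at 1.821, 1.836 and 1.776 under DUXC-ALT. In those factors the order was thus that of the other members as well. Under DUX4 the other members stood at 4.456, 4.231 and 4.383, in a different order. The order shared by rows 335 and 660 was noticed after the values were seen, and what it comes from was not tested.

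By likeness of pattern, 3 low rows came closest to row 335 over the 9 libraries of the factors. The measure was the distance between log2 CPM values centred on the row's own mean. Rows 676, 188 and 470 lay at distances of 0.581, 0.591 and 0.603, where the median member lay at 1.002. Row 188 stood at 20.8, 18.7 and 21.1 CPM under DUX4, at 16.9, 20.5 and 16.1 CPM under DUXC and at 11.6, 13.2 and 11.02 CPM under DUXC-ALT. As in row 335, replicate 3 was the lowest of the DUXC and of the DUXC-ALT libraries, which a choice by likeness favours. The median member CPM was also lowest in these libraries, at 24.04 and 14.93. Under DUX4, replicate 2 was lowest in row 188 and replicate 1 in row 335.

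**Figure D3:**
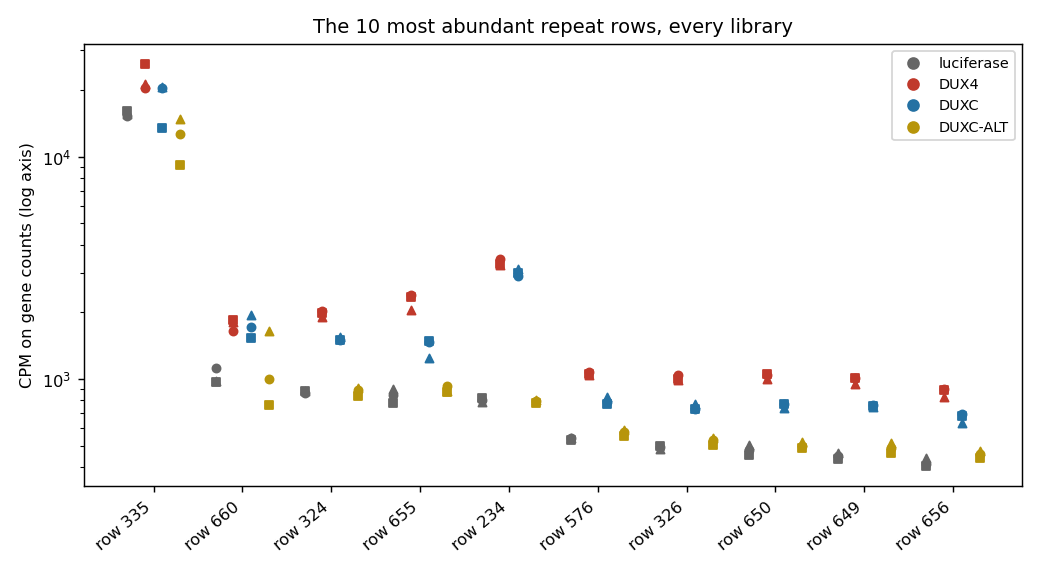
CPM on gene counts (logarithmic vertical axis) of the 10 most abundant rows in every library. Colours give the group and symbols the replicate, as in the plot of summed levels. Rows 335 and 660 spread widely between libraries of 1 factor, while in the other 8 rows every DUX4 library lay above every DUXC library and every DUXC library above those of DUXC-ALT and luciferase.

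Among the other 8 of the 10 most abundant rows, row 234 responded most. It stood at 803, 786.1 and 818.9 CPM in the luciferase libraries, at 3455, 3244 and 3287 CPM under DUX4, at 2911, 3103 and 2997 CPM under DUXC and at 796.4, 803.9 and 778.2 CPM under DUXC-ALT. DUX4 and DUXC lay far above both other groups and close to each other. DUXC exceeded DUXC-ALT by 1.95 ± 0.05 log2 units (SE, edgeR, adjusted p = 1.09e-42), and DUX4 exceeded DUXC by 0.14 ± 0.04 (SE, edgeR, adjusted p = 0.00371). After row 335, this row added most to the summed rise, at 7.58% of the difference between DUX4 and luciferase and 11.6% of that between DUXC and luciferase.

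Row 655 favoured DUX4 more. It stood at 847.8, 903.8 and 780.5 CPM under luciferase, 2378, 2049 and 2330 CPM under DUX4, 1464, 1242 and 1472 CPM under DUXC, and 930.6, 880.7 and 870.7 CPM under DUXC-ALT. The DUX4 and DUXC ranges did not overlap, and DUX4 was higher by 0.69 ± 0.06 log2 units (SE, edgeR, adjusted p = 4.19e-08). Row 324 stood at 1964 ± 66.1 CPM under DUX4, 1515 ± 28.2 CPM under DUXC, 879.1 ± 41.1 CPM under DUXC-ALT and 871.5 ± 10.9 CPM under luciferase (SD, n = 3). Rows 576, 326, 650, 649 and 656 lay between 419.5 and 537.5 CPM under luciferase, between 872.1 and 1058 CPM under DUX4, between 668.5 and 794.7 CPM under DUXC and between 456.2 and 574.5 CPM under DUXC-ALT, as group means. In each of these 5 rows DUX4 exceeded DUXC by 0.38 to 0.43 on the log2 scale, and all 5 differences were called (edgeR).

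The largest differences from DUXC-ALT lay in rows of lower rank. Row 595 stood at 16.1, 15.7 and 16.7 CPM under luciferase, at 358.9, 373.8 and 348.2 CPM under DUX4, at 156.8, 160.3 and 157.7 CPM under DUXC and at 17.2, 16.3 and 16.9 CPM under DUXC-ALT. The 3 levels were separated with no overlap, and DUXC-ALT lay at the luciferase level. DUX4 exceeded DUXC-ALT by 4.50 ± 0.05 and DUXC exceeded it by 3.26 ± 0.07 log2 units (SE, edgeR, adjusted p = 1.27e-45 for DUXC). DUX4 exceeded DUXC by 1.18 ± 0.05 (SE, edgeR, adjusted p = 1.19e-34).

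Row 195 followed the same order. It stood at 19.2, 19.02 and 21.1 CPM under luciferase, 410.2, 420.8 and 424.7 CPM under DUX4, 168, 168.3 and 166.5 CPM under DUXC and 22.01, 20.4 and 20.8 CPM under DUXC-ALT. DUX4 exceeded DUXC by 1.31 ± 0.05 log2 units (SE, edgeR, adjusted p = 2.18e-38). Row 593, the last but one inside the rank limit, stood at closer levels with DUX4 and DUXC. It stood at 3.16, 4.41 and 4.66 CPM under luciferase, 55.9, 61.3 and 58.7 CPM under DUX4, 44.3, 46.3 and 47.6 CPM under DUXC and 3.40, 3.64 and 4.17 CPM under DUXC-ALT. DUXC exceeded DUXC-ALT by 3.65 ± 0.10 (SE, edgeR, adjusted p = 1.21e-38), the largest such difference among the members, and DUX4 exceeded DUXC by 0.34 ± 0.07 (SE, edgeR, adjusted p = 6.53e-06). Rows 137 and 591 were alike, with 84.7 ± 1.93 and 84.2 ± 2.48 CPM under DUX4, 65.8 ± 1.26 and 60.8 ± 1.51 CPM under DUXC, and 7.07 ± 0.550 and 7.59 ± 0.276 CPM under DUXC-ALT (SD, n = 3).

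A few rows stood much higher with DUX4 than with DUXC. Row 27 stood at 12.5, 14.9 and 13.3 CPM under luciferase, at 94.3, 96.96 and 97.5 CPM under DUX4, at 26.1, 22.1 and 24.4 CPM under DUXC and at 16.3, 16.5 and 17.3 CPM under DUXC-ALT. Only its DUX4 libraries were far from the rest, and the difference from DUXC was 1.99 ± 0.07 log2 units (SE, edgeR, adjusted p = 3.75e-41), the largest among the members. Row 530 stood at 69.4 ± 3.99 CPM under DUX4 and 21.7 ± 0.862 CPM under DUXC (SD, n = 3), and at 5.85, 6.47 and 5.67 CPM under DUXC-ALT, a difference between DUX4 and DUXC of 1.67 ± 0.07 (SE). Rows 492 and 255 differed between DUX4 and DUXC by 1.59 ± 0.08 and 1.58 ± 0.08 (SE). In all 3 of these rows DUXC in turn exceeded DUXC-ALT, by 1.88, 1.33 and 1.54 on the log2 scale.

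In the other direction, DUXC exceeded DUX4 in 18 members, each by less than 2-fold. Row 442 stood at 8.20, 8.29 and 7.09 CPM under luciferase, at 12.6, 11.3 and 13.0 CPM under DUX4, at 21.3, 20.5 and 19.96 CPM under DUXC and at 6.95, 7.05 and 7.97 CPM under DUXC-ALT. All DUXC libraries lay above all DUX4 libraries, which lay above both other groups. The difference of DUX4 from DUXC was -0.75 ± 0.09 log2 units (SE, edgeR, adjusted p = 4.04e-12). Rows 503, 187, 380 and 560 followed at -0.72, -0.62, -0.54 and -0.52, and in each of them DUX4 also exceeded DUXC-ALT. All 5 of these rows ranked between 223 and 327 by luciferase reads.

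**Figure D4:**
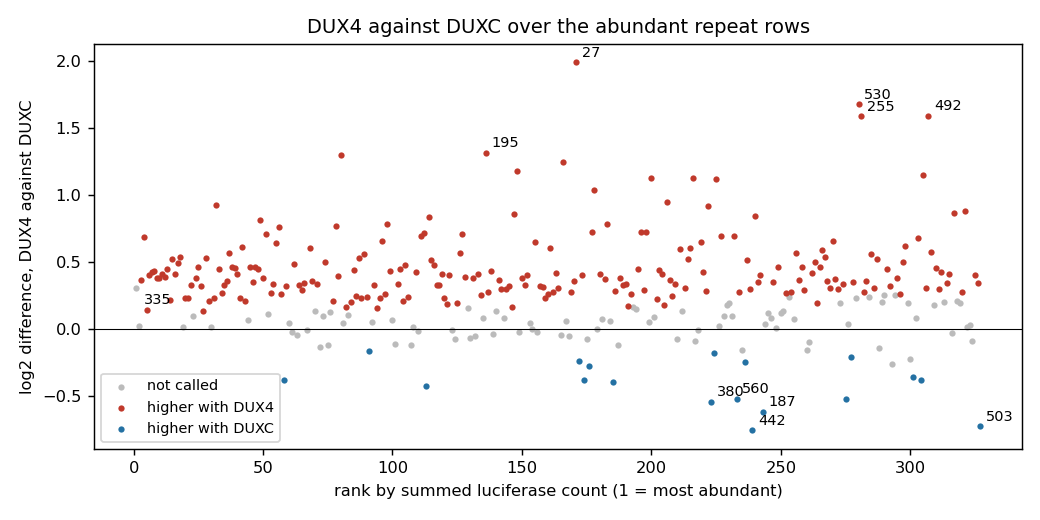
Log2 difference between DUX4 and DUXC (vertical axis) against the rank of each member by summed luciferase count (horizontal axis). Red points were higher with DUX4 (220 rows), blue points higher with DUXC (18 rows) and grey points not called, and the rows named in the text are labelled by number. Differences of more than 1 on the log2 scale lay on the DUX4 side alone, in 13 rows.

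Some members were lower with DUX4 and with DUXC than with luciferase. Row 480 stood at 68.3, 70.3 and 73.8 CPM under luciferase, at 44.2, 42.2 and 47.6 CPM under DUX4, at 41.3, 50.4 and 45.7 CPM under DUXC and at 51.8, 52.8 and 52.4 CPM under DUXC-ALT. All 9 libraries of the factors lay below all luciferase libraries. The same held for row 67, at 53.3 ± 2.68 CPM under luciferase, 34.4 ± 0.355 CPM under DUX4, 37.5 ± 1.05 CPM under DUXC and 36.6 ± 1.68 CPM under DUXC-ALT (SD, n = 3). In row 67 none of the 3 differences between factors was called. Luciferase libraries also carry the other doxycycline tag, and its part in these levels was not tested. Rows 465, 454 and 633 were also called lower with all 3 factors, which gives 5 such members with rows 480 and 67. The share of this pattern over all rows was not taken. Over all rows tested, 1.13%, 2.81% and 12.6% were lowered with DUX4, DUXC and DUXC-ALT, each taken singly. Row 260 was called lower with DUX4 alone. That call was lost without DUX4 replicate 2 (edgeR adjusted p = 0.0875) and in DESeq2 (adjusted p = 0.0555).

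Against DUXC-ALT, where the doxycycline label does not differ, DUX4 lay lower in 4 members, rows 633, 465, 454 and 480. Row 465 stood at 45.4, 44.3 and 46.9 CPM under DUX4, 43.8, 48.9 and 43.8 CPM under DUXC and 57.4, 61.9 and 60.7 CPM under DUXC-ALT. DUX4 and DUXC overlapped, and both lay below every DUXC-ALT library. The log2 differences from DUXC-ALT were -0.32 ± 0.05 for DUX4 and -0.37 ± 0.07 for DUXC (SE, edgeR, adjusted p = 3.62e-10 and 9.91e-07). DUX4 had 0 members below DUXC-ALT by more than 2-fold, and so had DUXC.

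In 4 members, rows 210, 24, 74 and 71, DUX4 was raised and DUXC lowered against the same luciferase libraries. These rows were singled out after their values were seen, and the share of this pattern over all rows was not taken. Over all rows tested, 91.4% were raised with DUX4 and 2.81% lowered with DUXC. Row 210 stood at 72.2, 83.3 and 76.2 CPM under luciferase, 113.6, 100.8 and 103 CPM under DUX4, 66.4, 57.9 and 61.7 CPM under DUXC and 87.1, 81.1 and 80.7 CPM under DUXC-ALT. The DUX4 libraries lay above and the DUXC libraries below all libraries of the other two groups. DUXC lay below DUXC-ALT by -0.39 ± 0.06 and DUX4 above it by 0.43 ± 0.04 log2 units (SE, edgeR, adjusted p = 7.5e-08 and 6.41e-30). Rows 24 and 74 were lower with DUXC than with DUXC-ALT by -0.51 ± 0.08 and -0.41 ± 0.10 (SE, edgeR, adjusted p = 1.21e-07 and 0.00014), as was row 681 by -0.46 ± 0.11 (SE). DUX4 and DUXC-ALT did not differ past the threshold in those 3 rows.

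DUXC-ALT itself lay close to luciferase over the members. The largest rise was in row 272, at 15.96, 14.6 and 15.5 CPM under luciferase, 22.7, 24.2 and 24.99 CPM under DUXC-ALT, 53.7, 51.3 and 55.7 CPM under DUX4 and 52.3, 61.7 and 47.8 CPM under DUXC. Every DUXC-ALT library of this row lay above luciferase and below DUX4 and DUXC. The other rises named were 0.38 in row 560, 0.36 in row 681, 0.32 in row 488 and 0.31 in row 183 on the log2 scale. Of these, the calls in rows 560, 681 and 488 were lost without luciferase replicate 3, and those in rows 681 and 488 also without DUXC-ALT replicate 1 or 2. Among called rows whose groups did not overlap, the largest falls were -0.78 in row 57, -0.61 in row 67, -0.51 in row 480, -0.44 in row 503 and -0.44 in row 524. The call in row 503 was lost without DUXC-ALT replicate 2 or 3 or luciferase replicate 1 or 3, and also with gene column totals (edgeR adjusted p = 0.128), repeat scaling (edgeR adjusted p = 0.125) and DESeq2 (adjusted p = 0.192). DESeq2 did not call the rises in rows 681 and 488 either (adjusted p = 0.0791 and 0.0978). No member changed by more than 2-fold.

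The counts for DUXC-ALT against luciferase depended on single libraries. The 8 raised members became 4 without DUXC-ALT replicate 1, 3 without DUXC-ALT replicate 2, 5 without luciferase replicate 1 and 4 without luciferase replicate 3. The 57 lowered members became 34 without DUXC-ALT replicate 1 and 35 without luciferase replicate 3. Of the calls, 2 raised and 22 lowered members were kept in each of the 6 fits that left out 1 library. With gene column totals alone, without TMM factors, 16 were raised and 21 lowered.

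The size of the response was given for rank groups as a description. Split into 4 rank groups of 81 or 82 rows, the median log2 difference between DUX4 and DUXC-ALT was 1.17 in the most abundant, then 1.01, 1.13 and 1.16. For DUXC over DUXC-ALT the medians were 0.74, 0.71, 0.76 and 0.78, and for DUX4 over DUXC they were 0.35, 0.300, 0.28 and 0.300. The summed level of the 327 joined rows below the rank limit was 3.56 times as high with DUX4 as with DUXC-ALT, and 2.32 times with DUXC. For the members without row 335 these ratios were 2.36 and 1.83. That difference between the 2 sets of rows was not tested.

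Most members were raised in both of 2 comparisons that share no library, at shares near those of all rows. To avoid shared libraries, DUX4 against luciferase was set beside DUXC against DUXC-ALT, which use 12 different libraries. Of the members, 308 were raised in the first, 288 in the second and 284 in both, which is 92.2% of the first and 98.6% of the second. Of all members, 94.2% were raised in the first and 88.1% in the second, so that most rows fall in both lists whatever their relation. Over the 592 joined rows tested in both, the overlap was 90.5% of the first list and 97.8% of the second. The first comparison also holds the luciferase libraries that chose the rows, so nothing particular to the members is read from the overlap. By more than 2-fold, 178 and 101 were raised and 92 in both, or 51.7% and 91.1% of the 2 lists. Of all rows tested, 63.5% were raised by more than 2-fold in the first comparison and 42.8% in the second. The 2-fold overlap and the correlations that follow were not taken over all rows, so they are not read as particular to the members. Log2 fold changes of the 2 comparisons correlated across the 327 members at r = 0.83 and rho = 0.81, and at r = 0.83 without row 335. Rows are not independent replicates, reads that match several families may be shared between rows, and the libraries share a protocol. In the other pairing, DUXC against luciferase beside DUX4 against DUXC-ALT, 276 members were raised in both, 98.2% and 90.5% of the 2 lists, with r = 0.85. There 85.9% and 93.3% of all members were raised, and over the 595 joined rows tested in both the overlap was 98.4% and 88.3% of the 2 lists. DUXC-ALT against luciferase beside DUX4 against DUXC gave r = 0.0573.

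**Figure D5:**
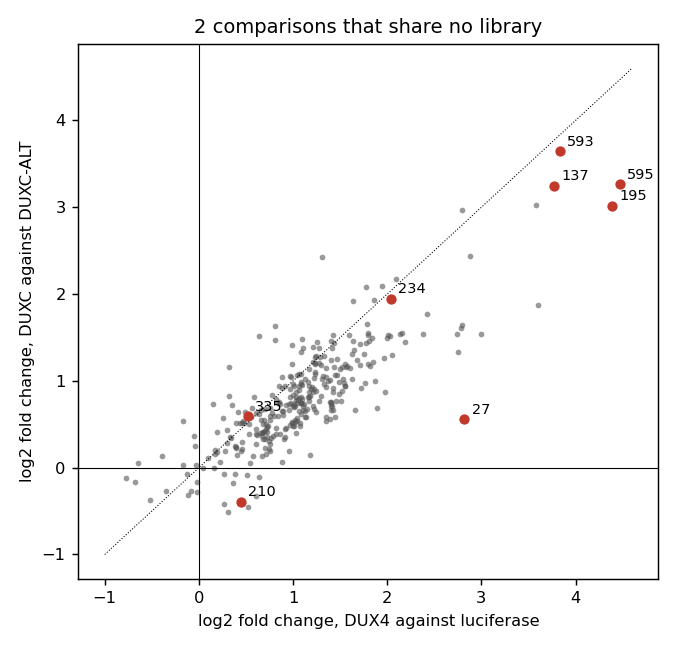
Log2 fold change of each member with DUX4 against luciferase (horizontal axis) and with DUXC against DUXC-ALT (vertical axis). The 2 comparisons use different libraries, the dotted line marks equal change, and red points are some of the rows named in the text. Rows 595, 195, 593 and 137 lay at the upper end, and row 27 lay far below the line at 2.82 and 0.56.

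Members in adjacent rows of the DUX4 table showed a weak likeness. Over the 198 pairs of members with no row between them, log2 differences correlated at r = 0.284 for DUX4 against DUXC-ALT, 0.247 for DUXC against DUXC-ALT and 0.15 for DUX4 against DUXC. Rows 591, 593 and 595, which are among the largest rises, lie close together in the table but are not adjacent. What orders the rows is not given in the sources used here, and reads shared between adjacent rows were not tested.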

How the data were processed

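Polyadenylated RNA of 12 libraries was sequenced, 3 per group, after TruSeq RNA v2 preparation, per the labels' protocols. The submitters' processing notes name canFam3, CASAVA, TopHat2 2.1.0, Bowtie2 2.2.6 and DESeq2 without role or order. How reads were counted, with which strand setting and with what treatment of several matches is not given in the sources used here, so rows may share reads. The authors deposited raw counts, whole numbers per gene or repeat row, in 6 tables that each pair luciferase with 1 factor. The 6 normalized tables were not used. No table row totalled under 7 reads.

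Members and row lists were chosen with earlier results of these data known. CPM used the gene-table column totals, with luciferase totals from the DUX4 table. The test on repeat counts was that of edgeR 4.0.16 under R 4.3.3 (filterByExpr, robust glmQLFit, glmQLFTest, Benjamini-Hochberg adjustment over all repeat rows tested, threshold 0.05) on the 6 libraries compared, with TMM effective library sizes from the genes of those libraries that passed filterByExpr. Comparisons with luciferase used the whole repeat table of the factor, and those between factors the 654 joined rows. A standard error is the log2 fold change over the square root of F. The procedure was tested on simulated counts. Named rows are the 10 most abundant, the 5 largest changes each way per comparison among called rows whose groups do not overlap, rows at the rank limit, up to 3 rows lowered with DUX4 and DUXC, and the 3 rows nearest to row 335. DESeq2 1.42.0, other scalings, no filter, a replicate block, a 12-library fit, a smaller set of rows and fits without each library were tried as alternatives. Replicate libraries differed by 2.12 to 17.2 times the sampling noise over the members without row 335 (chi-square per degree of freedom), so none was a copy of another.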

Additional observations from a re-analysis of the deposited data

How the results depend on the processing

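Scaling on the repeats themselves changed every count. Raised and lowered members became 97 and 162 for DUX4 and 91 and 143 for DUXC against luciferase, 17 and 21 for DUXC-ALT against luciferase, 92 and 154 for DUXC and 101 and 170 for DUX4 against DUXC-ALT, and 81 and 98 for DUX4 against DUXC. Row 335 reversed under that scaling, to -0.67 for DUX4 and -0.63 for DUXC against luciferase, -0.28 for DUXC and -0.33 for DUX4 against DUXC-ALT, and -0.0124 for DUX4 against DUXC. On that scaling the row was called lower with DUX4 and with DUXC against luciferase (edgeR adjusted p = 3.25e-05 and 0.00238). Its differences between factors were not called (edgeR adjusted p = 0.363, 0.253 and 0.969, in the order given). Repeat scaling moved all rows of a comparison together, and whether repeat reads rose or gene reads fell was not tested. Gene totals without TMM gave 16 raised and 21 lowered for DUXC-ALT against luciferase and 7 lowered for DUX4 against DUXC-ALT. DESeq2 gave 4 and 33 for DUXC-ALT against luciferase. The smaller set, the highest-ranked 1 in 4 of the 654 joined rows, has fewer rows than the 327 members by construction. A lower count in it is therefore not by itself a smaller share. It had 154 and 146 raised with DUX4 and DUXC against luciferase, and 5 raised with DUXC-ALT. Of all rows tested, 91.4%, 82.6% and 1.81% were raised. The smaller set had 146 raised and 7 lowered for DUXC against DUXC-ALT, beside 85.1% and 2.17% of all rows. For DUX4 against DUXC-ALT it had 152 raised, beside 91.6%. For DUX4 against DUXC it had 123 raised and 3 lowered, beside 54.3% and 7.43%. Shares within the smaller set were not taken. Ranking on luciferase replicate 1 left 5 raised with DUXC-ALT.

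Leaving out each library in turn gave, for raised and lowered members, 301 to 307 and 5 to 8 for DUX4, 272 to 282 and 9 to 14 for DUXC, and 3 to 11 and 34 to 72 for DUXC-ALT against luciferase. Against DUXC-ALT it gave 277 to 287 and 10 to 12 for DUXC, and 302 to 306 and 4 to 7 for DUX4. For DUX4 against DUXC it gave 200 to 236 and 13 to 18.

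Summed-level ratios without row 335 became 2.39, 1.86 and 1.02 for DUX4, DUXC and DUXC-ALT against luciferase and 2.36 for DUX4 against DUXC-ALT. Without rows 335 and 660, a choice made after seeing the data, they were 2.43 and 1.87 for DUX4 and DUXC against luciferase, and 1.85 and 2.41 for DUXC and DUX4 against DUXC-ALT. With TMM sizes DUX4 over DUXC-ALT was 2.27. Leaving out each library gave 1.91 to 2.004, 1.497 to 1.63 and 0.863 to 0.966 against luciferase, 1.603 to 1.79 and 2.04 to 2.28 for DUXC and DUX4 against DUXC-ALT, and 1.21 to 1.31 for DUX4 against DUXC.

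Over the members, each weighted equally, replicate numbers showed no general pairing of the libraries. That does not exclude pairing between some groups or in single rows. Deviations from the group mean correlated above 0.1 in 1 of 18 same-numbered pairs, with a median of -0.0202, and in 11 of 36 others. With the replicate block, DUX4 over DUXC-ALT in row 335 was 0.98 (edgeR adjusted p = 0.096), and no count moved by over 1.5 times. Of the named rows, those with the largest changes were followed across the alternatives in their own comparison, and row 335 in all 6. There 748 values kept direction and call, 21 lost their call, 6 gained one and 5 reversed, all 5 in row 335. Apart from row 335, these rows were picked for large called changes in the same libraries. The tally therefore does not describe the members at large. The other abundant rows, and rows named only for the rank limit or for likeness to row 335, were left out of this tally. Rows 660, 576 and 326 rose with DUX4 over luciferase by 0.78, 0.97 and 1.02 on the log2 scale. Those rises were smaller in size than the shift of -1.18 under repeat scaling.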
